A study of Mus musculus with 8 samples.

Results

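The genes described here are 41 mouse genes of the RNA splicing machinery, of 21883 protein-coding genes in the reference used, taken from a list of symbols and followed across Chd7 and Chd8 peak lists. They comprise 10 SR proteins, 8 heterogeneous nuclear ribonucleoproteins (hnRNPs), 16 proteins of the small nuclear ribonucleoproteins (snRNPs), 3 helicases, and 4 further factors, namely both U2AF subunits with Rbm25 and Rbm39. The list was not built from peak values, but it was chosen with earlier results of these data known. Chromatin immunoprecipitation and sequencing (ChIP-seq) had been done on O4-positive cells, an oligodendrocyte lineage population pulled out with magnetic beads from cortex and corpus callosum of wild-type mice at postnatal day 7. The 8 libraries were 2 anti-Chd7 ChIPs (Cell Signaling antibody), 1 anti-Chd8 ChIP (Bethyl antibody), 2 mock ChIPs with rabbit IgG, and 3 inputs with no antibody. Mock 1 belonged to Chd7 replicate 1, while mock 2 served both Chd7 replicate 2 and Chd8, and each ChIP had its own input. All libraries came from untreated wild-type cells, so no genotype or treatment is compared here, and every comparison is between the splicing genes and all protein-coding genes within 1 list, or between a ChIP and its mock and input.

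Chd7 and Chd8 are ATP-dependent chromatin remodelers that slide or restructure nucleosomes, and both are linked to human neurodevelopmental disorders. Splicing removes introns from pre-mRNA. U1 snRNP recognises the 5′ splice site, U2AF and U2 snRNP select the 3′ splice site and branch point, and the U4, U5 and U6 snRNPs then form the catalytic spliceosome, which RNA helicases drive through its steps. SR proteins mostly promote the use of nearby splice sites, and hnRNPs coat nascent RNA and often repress them. In oligodendrocytes, alternative splicing shapes the isoforms of myelin proteins. The genes of this machinery are expressed in nearly all cells.

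The files list peaks and not reads, so depth is unknown and precision is set by the number of genes. After peaks touching a mock peak had been removed, 5218 peaks of Chd7 replicate 1, 6237 of Chd7 replicate 2 and 18350 of Chd8 remained, and 1383 reproducible Chd7 regions were formed where peaks of both Chd7 libraries overlapped by at least 1 bp. The mocks listed 89 and 98 peaks, and the inputs listed 109486, 178478 and 91628. As a check of the sorted cells, Chd8 peaks lay at ends of 5 of 6 OPC lineage marker genes, 2 of 5 neuron, 1 of 5 astrocyte, 1 of 5 microglia and 0 of 6 endothelial and mural marker genes, where 41% of all protein-coding genes had one. Reproducible Chd7 regions lay at 1 of 6 OPC lineage markers and at none of the other 21, where 4.83% of all genes had one. Peaks do not measure expression, so this is no measure of purity.

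Promoter sequences show what kind of DNA lies under these peaks. Of the 41 genes, 38 had at least 1 promoter in the RefSeq table (GRCm38.p6, the assembly named mm10), which gives 250 bases before and 50 bases after each listed start. Shown are 6 promoters overlapped by a reproducible Chd7 region, then that of Snrnp70, which had the highest Chd8 fold, and 1 of Srsf4, the only gene of the 41 with no ChIP peak. Each runs 5′ to 3′ on the strand of the gene. Capitals mark matches, on either strand, to the CCAAT box, to the GC box spelled GGGCGG, to the motif of ETS factors spelled CCGGAAG, or to the TATA box spelled TATAAA.
Srsf2, chr11:116853045-116853344, minus strand: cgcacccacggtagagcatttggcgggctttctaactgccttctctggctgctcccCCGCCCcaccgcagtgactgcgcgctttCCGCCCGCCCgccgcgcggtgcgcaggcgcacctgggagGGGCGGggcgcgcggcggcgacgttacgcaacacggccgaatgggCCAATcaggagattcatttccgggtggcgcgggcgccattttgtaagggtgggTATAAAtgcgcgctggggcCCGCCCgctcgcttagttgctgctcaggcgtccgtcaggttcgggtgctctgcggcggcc
Hnrnpc, chr14:52103972-52104271, minus strand: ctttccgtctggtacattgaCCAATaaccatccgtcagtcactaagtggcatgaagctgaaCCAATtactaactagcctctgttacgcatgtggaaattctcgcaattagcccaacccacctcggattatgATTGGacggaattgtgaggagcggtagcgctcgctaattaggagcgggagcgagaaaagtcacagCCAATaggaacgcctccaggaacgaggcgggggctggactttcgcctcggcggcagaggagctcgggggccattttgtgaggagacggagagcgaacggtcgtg
Sf3a2, chr10:80798485-80798784, plus strand: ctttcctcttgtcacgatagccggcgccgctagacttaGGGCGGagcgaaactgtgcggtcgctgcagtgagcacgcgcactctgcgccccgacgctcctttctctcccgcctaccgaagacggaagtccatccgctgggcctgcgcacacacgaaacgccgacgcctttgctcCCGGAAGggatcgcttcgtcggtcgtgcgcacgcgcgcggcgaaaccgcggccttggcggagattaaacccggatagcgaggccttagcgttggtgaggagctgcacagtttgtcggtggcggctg
Sf3b2, chr19:5295406-5295705, minus strand: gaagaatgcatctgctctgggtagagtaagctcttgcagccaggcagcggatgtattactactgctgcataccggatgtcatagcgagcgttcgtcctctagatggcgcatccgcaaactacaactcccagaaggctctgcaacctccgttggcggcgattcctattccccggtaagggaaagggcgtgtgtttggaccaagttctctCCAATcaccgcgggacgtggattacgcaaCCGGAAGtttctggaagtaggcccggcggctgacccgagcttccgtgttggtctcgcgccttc
Snrpe, chr1:133610231-133610530, minus strand: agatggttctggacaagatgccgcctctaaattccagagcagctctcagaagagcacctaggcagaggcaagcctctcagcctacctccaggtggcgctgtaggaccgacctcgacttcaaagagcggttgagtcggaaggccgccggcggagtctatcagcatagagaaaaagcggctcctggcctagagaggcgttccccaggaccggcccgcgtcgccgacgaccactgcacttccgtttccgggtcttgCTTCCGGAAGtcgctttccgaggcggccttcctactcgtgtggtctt
Rbm39, chr2:156180189-156180488, minus strand: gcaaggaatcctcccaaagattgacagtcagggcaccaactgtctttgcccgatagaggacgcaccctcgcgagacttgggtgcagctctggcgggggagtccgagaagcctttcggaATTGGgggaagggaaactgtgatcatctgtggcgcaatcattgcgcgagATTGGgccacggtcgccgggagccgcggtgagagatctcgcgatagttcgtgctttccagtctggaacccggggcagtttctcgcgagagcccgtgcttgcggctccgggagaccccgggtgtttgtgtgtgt
Snrnp70, chr7:45395693-45395992, minus strand: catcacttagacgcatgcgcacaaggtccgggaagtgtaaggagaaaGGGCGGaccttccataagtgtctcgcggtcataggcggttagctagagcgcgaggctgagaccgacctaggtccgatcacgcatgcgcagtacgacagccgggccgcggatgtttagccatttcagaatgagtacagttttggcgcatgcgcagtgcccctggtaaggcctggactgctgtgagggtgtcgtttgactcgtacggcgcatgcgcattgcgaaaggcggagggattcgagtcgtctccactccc
Srsf4, chr4:131873387-131873686, plus strand: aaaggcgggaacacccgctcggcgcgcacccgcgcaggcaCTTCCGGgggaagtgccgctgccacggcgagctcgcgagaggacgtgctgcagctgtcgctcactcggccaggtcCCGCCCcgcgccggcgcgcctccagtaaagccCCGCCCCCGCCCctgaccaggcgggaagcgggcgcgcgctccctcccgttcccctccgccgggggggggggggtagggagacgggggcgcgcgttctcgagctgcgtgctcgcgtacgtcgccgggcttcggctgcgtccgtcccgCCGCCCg

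The sequences differ in the motifs they hold. That of Hnrnpc held 4 CCAAT boxes and no other motif searched, Srsf2 held 7 matches of CCAAT, GC and TATA boxes, and Snrpe held a pair of ETS matches that overlap on opposite strands. Rbm39 held 2 CCAAT boxes, Sf3a2 1 GC box and 1 ETS match, Sf3b2 1 CCAAT box and 1 ETS match, and Snrnp70 1 GC box. The promoter of Srsf4, where no ChIP peak was listed, held 1 ETS match and 4 GC boxes and had a GC content of 77.7%, above the 58.7% of the Snrnp70 promoter, where the Chd8 fold was highest. No motif was therefore common to the promoters with a Chd7 region shown here.

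The promoters of the splicing genes were rich in CpG. Averaged per gene, the median ratio of observed to expected CpG was 0.956 over the 38 splicing genes and 0.564 over all 17491 genes with a listed start, and median GC content was 61.3% and 56.3%. The ETS motif occurred in 14 of 38 splicing genes (36.8%) and in 12.9% of all genes. GC boxes occurred in 24 (63.2%) and in 49.2% of all genes, CCAAT boxes in 17 (44.7%) and in 42.3%, and TATAAA in 7 (18.4%) and in 14.8%. Of the other motifs searched, the E-box spelled CACGTG occurred in 5 (13.2%) and in 8.91% of all genes. The YY1 motif spelled AAGATGGC occurred in 1 (2.63%, Sf3a1) and in 3.57%, and the CRE spelled TGACGTCA in 1 (Snrpa) and in 2.54%. Among the 10 genes with a reproducible Chd7 region at an end, 6 held a CCAAT box, 4 a GC box and 3 an ETS match. No motif contains another, matches may overlap, and a gene counted once if any of its listed promoters held the letters, so genes with more listed starts had more chances. A match describes letters only, and no binding of these factors was measured.

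Chd8 lay at nearly every splicing gene. A gene end was either boundary of a gene with 1 kb on both sides, and 40 of the 41 splicing genes had a Chd8 peak there (97.6%, 95% exact binomial interval 87.1 to 99.9), where 41% of all protein-coding genes did. Reproducible Chd7 regions lay at 10 of 41 (24.4%, 12.4 to 40.3), where the share of all genes was 4.83%. All 10 also had Chd8 at the same end (4.76% of all genes, and 4.78% with both at any end). Over all genes, 1045 of the 1057 with reproducible Chd7 at an end also had Chd8 at an end, so this overlap was general. These 10 were the SR proteins Srsf1 and Srsf2, the hnRNPs Hnrnpc and Hnrnpk, the U2 snRNP proteins Sf3a2 and Sf3b2, the Sm ring proteins Snrpd2 and Snrpe, and Rbm25 and Rbm39. Neither mock had a peak at an end of any of the 41 genes (0.0183% of all genes for mock 1 and 0.0137% for mock 2). With mock-touching peaks kept, the 10 genes with Chd7 (4.84% of all genes, and 4.77% with both proteins at the same end) and the 40 with Chd8 were the same. That follows from the lack of mock peaks at these genes and is no separate check. The Chd8 list is longer than that of reproducible Chd7 regions, so shares are compared within a list and not between the proteins. The intervals cover counting error only, and since Chd8 is 1 library, no replicate error can be given for it.

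Inputs had peaks at many of the same ends. Input 1 had a peak at an end of 17 of 41 splicing genes (41.5%) and 21.9% of all genes, input 2 at 16 (39.0%) and 28.4%, and input 3 at 36 (87.8%) and 45.2%. The higher shares in the ChIP lists were thus accompanied by higher shares in every input list, with the smallest gap in input 2. All 3 inputs had a peak at an end of 9 genes (11% of all genes), and Chd8 without any input peak lay at 4 (6.69% of all genes), namely Srsf3, Hnrnpa1, Prpf3 and U2af2. Of the 44 Chd8 peaks at splicing gene ends, 19, 18 and 33 touched a peak of input 1, 2 and 3 (43.2%, 40.9% and 75%), and over all 8634 Chd8 peaks at gene ends these shares were 27.2%, 29.8% and 59.4%. All 10 reproducible Chd7 regions at splicing gene ends touched a peak of input 3 (80.1% over all genes), 5 touched input 2 (49.4%) and 4 touched input 1 (47.7%). When Chd8 peaks touching its own input (input 3 by the titles) were left out, 9 of 41 genes kept Chd8 (22%, with 16.7% of all genes), and when peaks of any input were left out, 6 did (14.6%, with 13.1%). These 6 were Srsf3, Srsf9, Srsf10, Hnrnpa1, Prpf3 and U2af2. The share of all genes then lay inside the binomial interval of the splicing genes (5.57 to 29.2 with any input removed), which is no test of a difference. Chd8 peaks at splicing gene ends were also wider than those at all gene ends (medians 952 and 481 bp). A wider peak has more room to touch an input peak, and what width added to this removal was not tested.

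**Figure D1:**
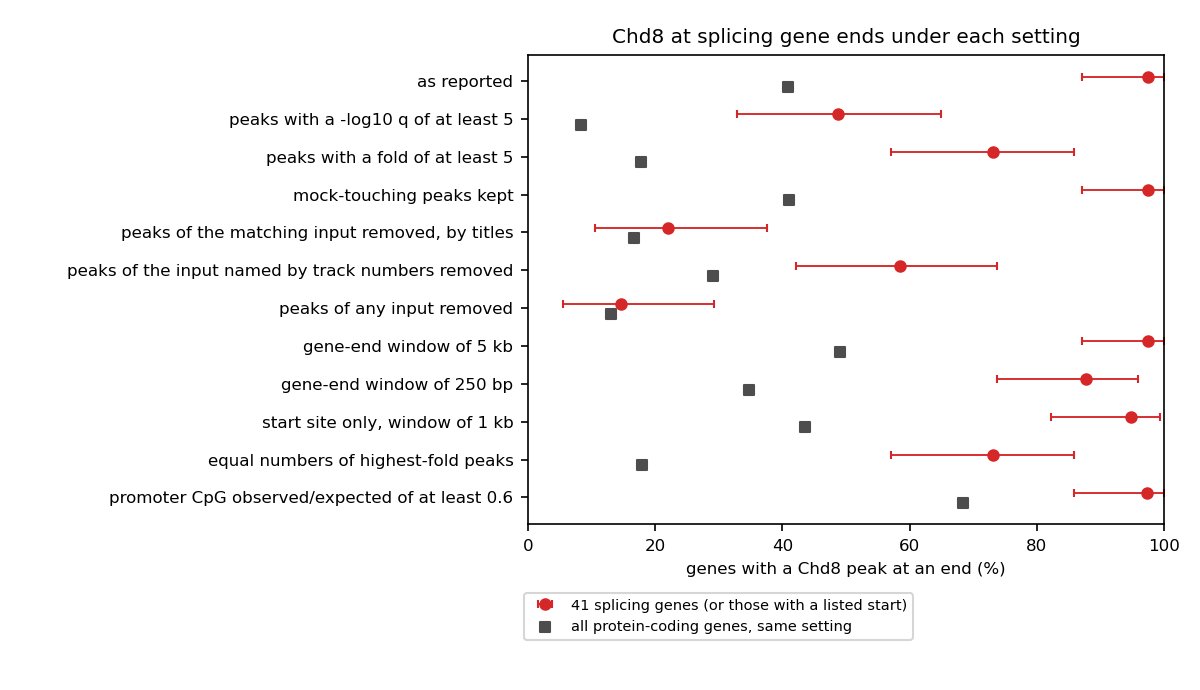
Share of genes with a Chd8 peak at an end (x axis, percent) under each setting (rows), for the 41 splicing genes (red circles with 95% exact binomial intervals) and for all protein-coding genes (grey squares). Both fall under stricter settings, and the circles come close to the squares where peaks of the matching input by titles (22% and 16.7%) or of any input (14.6% and 13.1%) are removed.

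For Chd7 the same removal left few genes. Without peaks touching the matching input by titles, 5 splicing genes kept a reproducible region, namely Srsf2, Hnrnpc, Snrpe, Rbm25 and Rbm39, with 1.75% of all genes, and 0 had it together with Chd8 (0.558% of all genes). The track names inside the files number the libraries differently from the titles, which would exchange inputs 2 and 3. With that assignment 0 of 41 genes kept a Chd7 region (0.759% of all genes, 0.553% with Chd8 too) and 24 kept Chd8 (58.5%, with 29.1% of all genes). With peaks of any input removed, 0 kept Chd7 (0.539% of all genes, 0.439% with Chd8 too). Requiring the replicate peaks to overlap by 50% of each left Hnrnpc and Rbm39 (1.72% of all genes, 1.71% with Chd8 too), and with peaks limited to a −log10 q of 5 or more in both libraries no splicing gene had Chd7 (0% of all genes). With the same q limit Chd8 lay at 20 of 41 (48.8%, 32.9 to 64.9), with 8.28% of all genes. Peaks with a fold of 5 or more in both Chd7 libraries left no splicing gene either (0.0137% of all genes), and Chd8 peaks of that fold lay at 30 of 41 (73.2%, 57.1 to 85.8), with 17.8% of all genes. Chd7 replicate 2 listed only 49 peaks that met the q limit and 69 that met the fold limit. Both limits thus left almost no Chd7 region at any gene, and the 0 counts are not particular to splicing genes.

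The 2 Chd7 libraries differed in the splicing genes they listed. Replicate 1 had a peak at an end of 15 of 41 (36.6%; 10.4% of all genes) and replicate 2 at 21 (51.2%; 17.0% of all genes). Either library listed 24 genes (21.9% of all genes) and both listed 12 (5.45% of all genes). Hnrnpa1, Hnrnpa2b1 and Snrpa were listed in both without touching peaks: the replicate 1 and 2 peaks lay 293, 90 and 135 bp apart. Srsf1 counted as reproducible through a replicate 2 peak that began just past the 1 kb window and touched the replicate 1 peak within it. Replicate 1 alone listed Sf3a3 and Snrnp70, and replicate 2 alone listed Srsf7, Srsf10, Hnrnpl, Sf3a1, Sf3b1, Prpf8, Prpf3, Snrpb and Ddx5. The remaining 16 genes with Chd8 had neither Chd7 library at an end (21.0% of all genes had Chd8 alone).

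**Figure D2:**
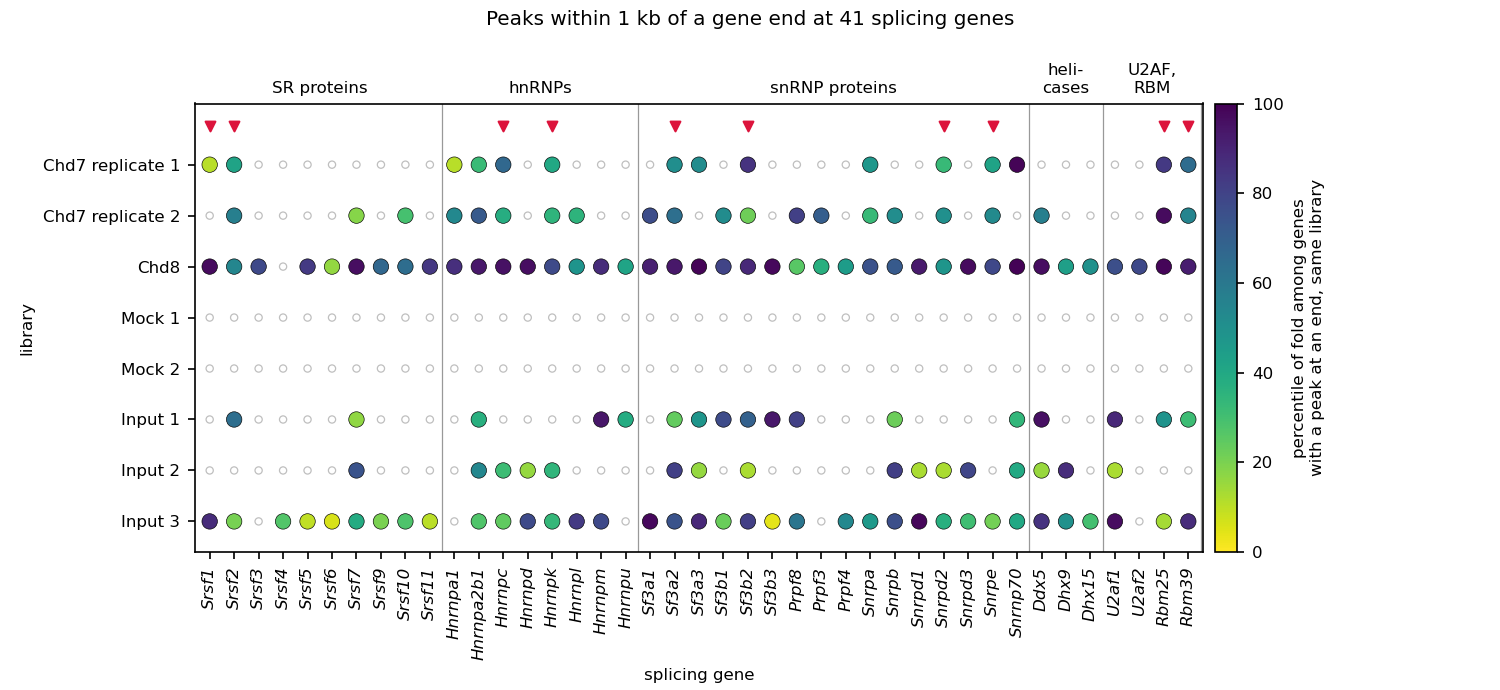
Peaks within 1 kb of an end of each splicing gene (x axis, by group) in each of the 8 libraries (y axis). Filled circles are genes with a peak, coloured by the percentile of the fold among all genes with a peak in that library, small open circles are genes without one, and red triangles mark the 10 genes with a reproducible Chd7 region. The Chd8 row is filled at 40 of 41 genes, both mock rows are empty, and input 3 is filled at 36.

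SR proteins bind exonic enhancers and recruit spliceosome components. Of the 10, 9 had Chd8 (interval of the share 55.5 to 99.7%) and 2 had reproducible Chd7 (2.52 to 55.6%). Fold is the enrichment of a peak over the background of the authors' peak caller, and levels are read only within a list. A value given for a gene is that of its highest peak at an end unless another place is named. Srsf1, which regulates both splice site choice and translation, had a fold of 8.21 in Chd8, the highest of the SR proteins and at or above 97.2% of genes with a Chd8 peak at an end. Its Chd7 fold was 4.15 in replicate 1 and 3.34 in replicate 2, on chr11:88047232-88047820, and the replicate 1 value stood at or above only 10.8% of genes in that list. Neither mock and neither of inputs 1 and 2 had a peak at its ends, input 3 had 3.99, and an input 2 peak of 3.38 lay inside the Chd7 region but past the end window. Srsf2, a protein of nuclear speckles that is often mutated in human myelodysplastic syndromes, had Chd7 folds of 4.46 and 3.45 and a Chd8 fold of 4.94 on chr11:116852693-116853814, and input folds of 3.91 in input 1 and 3.41 in input 3. Srsf2 was thus near the middle of each ChIP list, at the percentiles 41.9, 57.1 and 54.1.

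The other SR proteins ranked from high to absent. Srsf7 had the second highest Chd8 fold of the group (7.77), with Chd7 replicate 2 (3.16) and all 3 inputs (3.52, 3.86 and 3.52). Srsf11, which promotes neuronal microexons, had 6.07 in Chd8, Srsf5 had 6.02 and Srsf3, the smallest SR protein, had 5.73. Of these, Srsf3 had no input peak at an end. Srsf9 (5.29) and Srsf10 (5.22), a general repressor when dephosphorylated, stood lower, and Srsf6 had the lowest Chd8 fold of all 40 genes (4.14). Srsf10 had Chd7 at an end in replicate 2 (3.23) and not in replicate 1. A replicate 1 peak of 6.52, the highest of that library at any of the 41 loci, lay in its flank 5158 bp before the listed start (chr4:135850557-135850913), where Chd8 had 5.05 and input 3 had 3.30 and where replicate 2 had no peak. Srsf4 (chr4:131873530-131901725), the largest of the classical SR proteins, had no peak of any ChIP at its ends or within 10 kb (57.1% and 40.1% of all genes had none). The peaks nearest to it lay 29.9 kb away in Chd8, 13.3 kb away in Chd7 replicate 2 and 133 kb away in Chd7 replicate 1, while input 3 had a peak of 3.45 at its end.

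The hnRNPs package nascent RNA. All 8 had Chd8 (interval 63.1 to 100) and 2 had reproducible Chd7 (25%, 3.19 to 65.1). Hnrnpd, also called AUF1 and known for the decay of AU-rich mRNAs, had the highest Chd8 fold of the group (7.71), with no Chd7 in either replicate. Hnrnpc, which binds uridine tracts and keeps cryptic exons out of mRNA, followed with 7.51 in Chd8 and with Chd7 folds of 4.74 and 3.29 on chr14:52103752-52104673. Hnrnpc had no peak in either mock or in input 1, and had 3.43 in each of inputs 2 and 3. Hnrnpk, a binder of cytosine-rich RNA, had Chd7 folds of 4.44 and 3.27 and a Chd8 fold of 5.72, on chr13:58402325-58403236, with 3.45 and 3.49 in inputs 2 and 3. In both genes the ChIP peaks covered or lay beside the start and touched input 3.

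Hnrnpa2b1, whose product binds Mbp mRNA during its transport in oligodendrocytes, had 7.13 in Chd8, 4.37 and 3.62 in Chd7 without overlap, and peaks in all 3 inputs. Hnrnpa1, its paralog, had 6.26 in Chd8, 4.15 and 3.41 in Chd7 and no input peak at an end. It was the only splicing gene with both Chd7 libraries and Chd8 at an end but with no input. Hnrnpm had 6.36 in Chd8, Hnrnpl, a binder of CA repeats, had 4.81, and Hnrnpu, a protein of the nuclear scaffold, had 4.65. Hnrnpl shows how the definition of a gene end matters: its listed start lies 2344 bp inside the gene, and there a reproducible Chd7 region (chr7:28810488-28811013, 4.41 and 3.32) and a Chd8 peak (5.71) were found, both outside the end window. Peaks of all 3 inputs touched that region.

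The snRNP proteins were the largest group. All 16 had Chd8 (interval 79.4 to 100) and 4 had reproducible Chd7 (25%, 7.27 to 52.4). Snrnp70, the U1-70K protein that helps U1 snRNP hold the 5′ splice site, had the highest Chd8 fold of all 41 genes (10.5), at or above 99.5% of genes with a Chd8 peak at an end. It also had the highest Chd7 replicate 1 fold at an end of the 41 genes (6.33, at or above 99% of that list), but no replicate 2 peak at an end, and peaks in all 3 inputs (3.66, 3.49 and 3.53). Sf3a3 followed in Chd8 (9.45) and likewise had Chd7 at an end in replicate 1 only (4.56). The strongest Chd8 peaks of the group were therefore not at genes with reproducible Chd7.

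Among the U2 snRNP proteins, which hold the branch point, Sf3b2 had Chd7 folds of 5.12 and 3.19 and a Chd8 fold of 6.49 on chr19:5295189-5295895. It ranked at or above 85.5% of genes in replicate 1 and 21.9% in replicate 2, so its rank depended on the library. Sf3a2 had 4.55 and 3.51 in Chd7 and 7.12 in Chd8 on chr10:80798025-80798638. Both had peaks in all 3 inputs. The input peaks touching the Sf3b2 region had folds of 3.93, 3.23 and 3.39, and the highest at an end of Sf3a2 had 3.58, 3.97 and 3.80. Sf3b1, the subunit most often mutated in human myelodysplastic syndromes, had 5.82 in Chd8 and 3.40 in Chd7 replicate 2. Sf3b3 had 8.57 in Chd8 with no Chd7, and Sf3a1 had 6.77 with Chd7 replicate 2 only (3.69).

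The Sm proteins form the ring around U1, U2, U4 and U5 snRNA. Snrpd2 had Chd7 folds of 4.37 and 3.39 and a Chd8 fold of 4.80 on chr7:19149043-19150054, with 3.23 and 3.51 in inputs 2 and 3. Snrpe had 4.46 and 3.40 in Chd7 and 5.76 in Chd8 on chr1:133610020-133610487, with 3.42 in input 3 only. The other Sm genes had Chd8 without reproducible Chd7, at 8.14 for Snrpd3, 7.05 for Snrpd1 and 5.48 for Snrpb. Snrpa, the U1 protein A, had 5.59 in Chd8. Within the tri-snRNP, Prpf8, the scaffold of the catalytic core, had 4.34 in Chd8 at its far end and 4.18 at its start, the lowest of the group, Prpf3 had 4.56 and Prpf4 had 4.73. Prpf3 had no input peak at an end and 3.60 in Chd7 replicate 2, and Prpf8 had its replicate 2 peak (3.76) at the far end too.

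The helicases unwind RNA. All 3 had Chd8 and none had reproducible Chd7 (0 of 3, interval to 70.8, with 4.83% of all genes). Ddx5, a DEAD-box helicase that is also a transcriptional coregulator, had 7.81 in Chd8, in the widest Chd8 peak at any of the 41 genes (2832 bp), 3.45 in Chd7 replicate 2 and peaks in all 3 inputs (4.53, 3.27 and 3.95). Dhx15, which takes spent spliceosomes apart, had 4.85, the median of all genes with a Chd8 peak at an end. Dhx9 had 4.70.

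Of the remaining factors, Rbm25, a U1-associated regulator of 5′ splice sites, had the highest reproducible Chd7 fold of the 41 genes. Its folds were 5.05 and 4.35 in Chd7 and 9.12 in Chd8 on chr12:83632009-83632809, with 3.77 in input 1, none in input 2 and 3.37 in input 3. It stood at or above 83.4%, 97.2% and 98.5% of the genes in these ChIP lists, the only gene of the 41 above the 80th percentile in all 3. Rbm39, a U2AF-related coactivator that aryl sulfonamide drugs degrade, had 4.72 and 3.43 in Chd7 and 6.86 in Chd8 on chr2:156180246-156180557, with 3.64 in input 1 and 3.99 in input 3. U2af1 and U2af2, which read the AG and the pyrimidine tract of the 3′ splice site, had 5.64 and 5.73 in Chd8 and no Chd7 in either replicate. Inputs separated the pair, since U2af1 had peaks in all 3 (4.27, 3.23 and 4.37) and U2af2 in none.

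**Figure D3:**
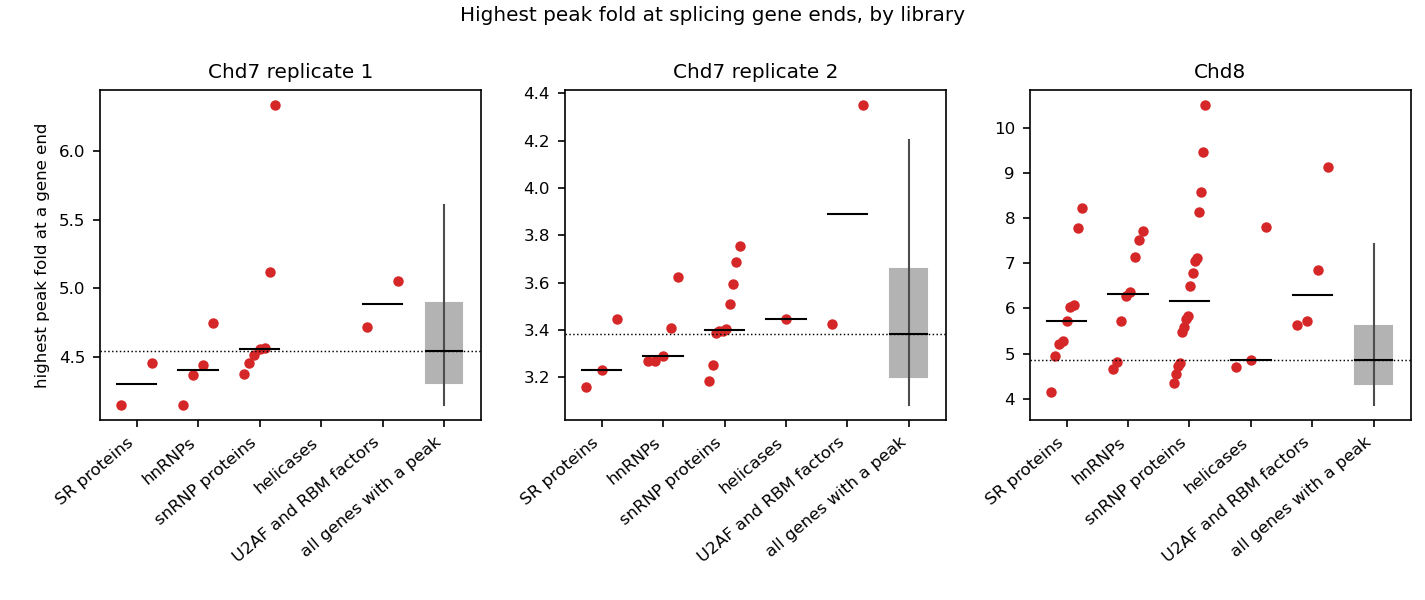
Highest peak fold at an end of each splicing gene with a peak (red points, with a line at the median of each group), by group (x axis), in each ChIP list (panels with separate y axes, fold over the caller's background). Grey boxes at the right give the quartiles of all genes with a peak in that list, thin lines the 5th to 95th percentile and dotted lines the median (4.55, 3.38 and 4.85). Most points lie above the dotted line in the Chd8 panel and on both sides of it in the Chd7 panels.

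Splicing genes ranked high among Chd8 genes and in the middle among Chd7 genes. Their median percentile in Chd8 was 81.4, with 26 of 40 above the 75th and 15 above the 90th percentile of all genes with a Chd8 peak at an end. In Chd7 it was 47.1 over 15 genes in replicate 1, 52.6 over 21 genes in replicate 2 and 37.8 over the 10 reproducible regions. By group the median Chd8 fold was 5.73 in SR proteins, 6.31 in hnRNPs, 6.15 in snRNP proteins, 4.85 in helicases and 6.29 in the U2AF and RBM factors, and the ranges of all 5 groups overlapped. In inputs the median percentile was 48.6, 33.0 and 39.5, so input folds at these genes were not high where input peaks were listed.

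Chd8 peaks at splicing genes were also broad. Their median width was 952 bp over 44 peaks and 481 bp over all 8634 Chd8 peaks at gene ends. Reproducible Chd7 regions had a median of 754 bp and 560 bp over all genes, replicate 2 peaks 520 bp and 366 bp, and replicate 1 peaks 240 bp in both. Input 3 peaks were wider at splicing genes too (531 bp and 412 bp). The genes themselves were of ordinary length, with a median of 17399 bp against 17170 bp for all genes, so the windows searched were alike in size.

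Nearly all peaks were on the side where transcription starts. All 37 splicing genes with a Chd8 peak at an end and a listed strand had it on the start side, and Ddx5 and Prpf8 had a further one at the other end. All 10 reproducible Chd7 regions were on the start side. Peaks of inputs 1, 2 and 3 were there too at 15 of 16, 14 of 14 and 33 of 34 such genes. Sides were not counted over all genes, so this is not shown to be particular to the ChIPs or to these genes. A Chd8 peak covered a listed start of 31 of 38 genes (81.6%, 65.7 to 92.3), against 32% of all genes with a listed start, and a reproducible Chd7 region covered that of 7 of 38 (18.4%, 7.74 to 34.3), against 4.31%. Input 3 peaks covered a listed start of 22 of 38 (57.9%), against 25.3%. Rbm25 is a case apart, since its listed start lies 3502 bp inside the gene and all its ChIP peaks at the start side lay at the 5′ boundary. The size of the window mattered less. Within 5 kb of a gene end, 11 splicing genes had reproducible Chd7 (6.22% of all genes), 40 had Chd8 (49%) and 11 had both at the same end (6.14%), the added gene being Hnrnpl. Within 250 bp these numbers were 9 (4.26%), 36 (34.7%) and 8 (4.16%), with Chd8 lost at Srsf1, Hnrnpk, Hnrnpl and Hnrnpu. Counted from listed starts with 1 kb, 10 of 38 genes had Chd7 (5.23% of all genes), with Hnrnpl in and Rbm25 out, and 36 of 38 had Chd8 (43.6%), with Srsf4 and Rbm25 out.

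**Figure D4:**
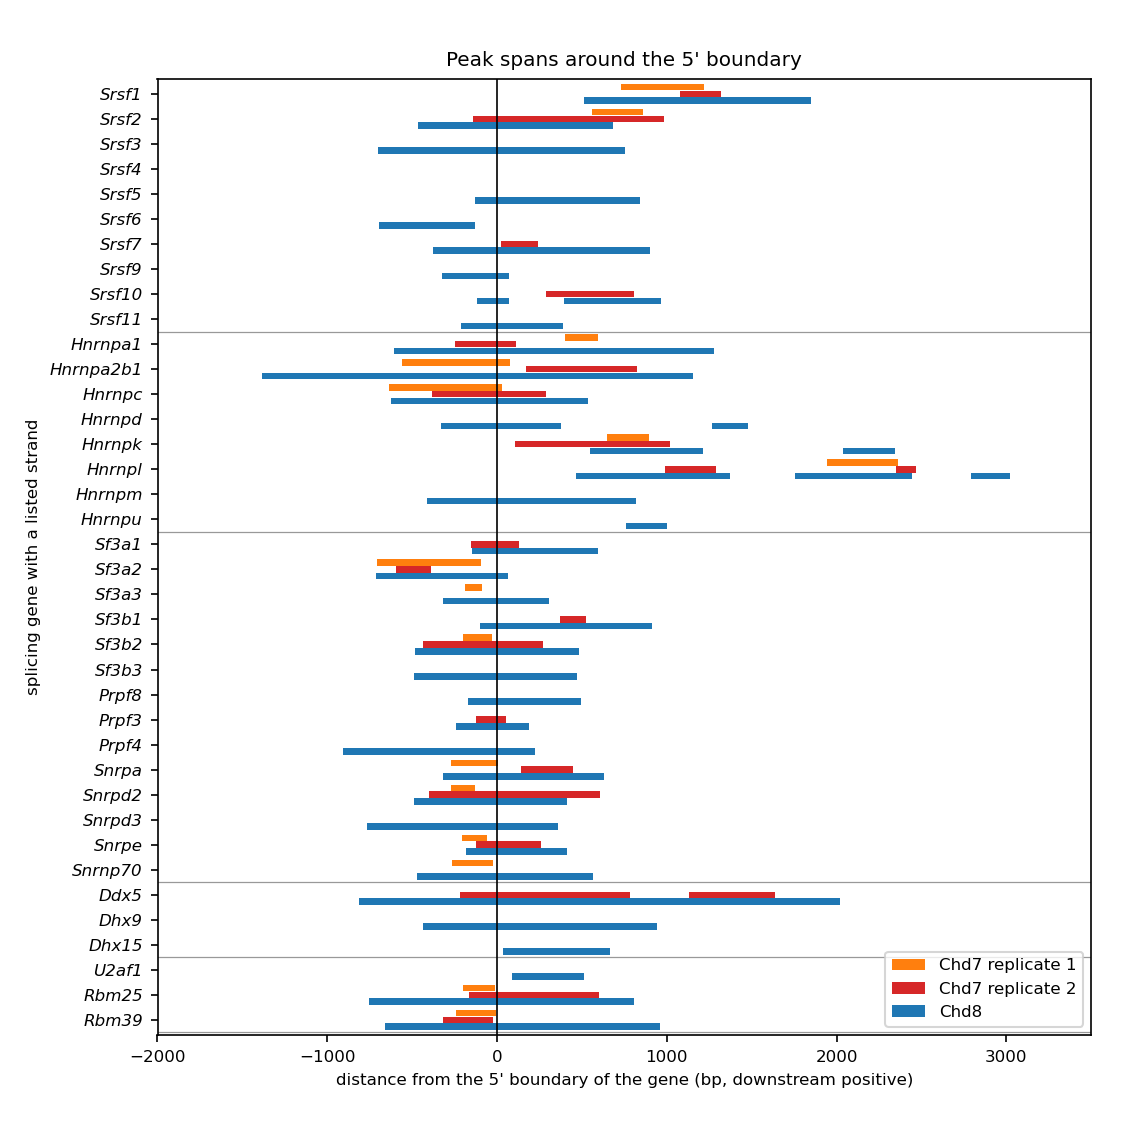
Extent of each Chd7 and Chd8 peak around the 5′ boundary of the 38 splicing genes with a listed strand (rows, by group), with distance from the boundary in bp on the x axis, downstream positive. Bars are peaks of Chd7 replicate 1 (orange), Chd7 replicate 2 (red) and Chd8 (blue). Most Chd8 bars span the boundary, whereas Chd7 bars sit within or beside them and differ in place between the replicates, as at Hnrnpa1, Hnrnpa2b1 and Snrpa.

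Many splicing genes share their start region with a neighbour. Another gene's end lay within 1 kb of an end of 20 of 41 (48.8%, against 24.8% of all genes) and within 1 kb of a listed start of 17 of 38 (44.7%, against 14.1%). Examples are Hnrnpa2b1 with Cbx3 and Hnrnpa1 with Cbx5, both encoding heterochromatin protein 1 paralogs, Srsf7 with Gemin6, a protein of the complex that assembles Sm rings, and Sf3a2 with Plekhj1. At such genes a peak cannot be assigned to 1 of the pair. Chd8 lay at 20 of 20 splicing genes with a neighbour and 20 of 21 without, and over all genes at 64.2% and 33.3%. Reproducible Chd7 lay at 5 of 20 with and 5 of 21 without, and over all genes at 8.79% and 3.52%. Among the splicing genes both shares were thus alike with and without a neighbour, within the precision of these counts.

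Widening the search to 10 kb beyond each end of the gene body added little. Reproducible Chd7 lay at 12 of 41 loci (29.3%, with 8.45% of all genes) and Chd8 at 40 (56.9% of all genes). The 2 loci added for Chd7 were Hnrnpl, through its internal start, and Snrpa, through a region of 3.98 at the ends of Mia and Rab4b. Replicate 1 had a peak at 17 loci (21.4% of all genes) and replicate 2 at 28 (29.1%). The mocks had none (0.151% and 0.142% of all genes), and inputs 1, 2 and 3 had peaks at 33, 41 and 41 loci (70.0%, 81.9% and 77.9%). Of 21 Chd8 peaks in the flanks of 16 genes, 15 lay at the end of another gene, among them 9.62 beside Srsf10 at Pnrc2, 8.06 beside Hnrnpu at Cox20, 7.35 beside Snrpd1 at Esco1, 6.84 beside Srsf9 at Gatc and Triap1, and 6.72 beside Srsf2 at Jmjd6 and Mettl23. Those 5 peaks exceeded the Chd8 fold at the ends of the splicing genes they flank. Only 6 Chd8 peaks lay in the bodies of 5 genes, such as 4.91 at the second listed start of Srsf11.

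Other genes of the splicing machinery were also often Chd8 genes. Of 130 further genes, 112 had Chd8 at an end (86.2%, 79.0 to 91.6) and 14 reproducible Chd7 (10.8%, 6.01 to 17.4). Chd8 was present at 27 of 27 further snRNP proteins, 13 of 13 further helicases and 27 of 27 factors of the Prp19 complex, the catalytic steps and the exon junction complex. It was absent from 1 of 13 SR-related genes (Srsf12), 2 of 7 SR protein kinases and 4 of 19 further hnRNPs. It was also absent from 11 of 24 splicing regulators labelled cell-type-restricted (Rbfox1, Rbfox2, Rbfox3, Mbnl1, Celf2, Celf3, Celf5, Elavl2, Elavl3, Elavl4 and Srrm4). The label only names the group, since expression was not measured here. The other 13 regulators ranged from 3.86 at Khdrbs1 to 6.53 at Rbm4 in Chd8 and included the neuronal Nova1 (4.74) and Nova2 (4.05). The regulators' share was 54.2% (32.8 to 74.4), with 41% for all genes. The highest Chd8 folds were 13.1 at Sfswap, 10.6 at Ptbp1, which represses neuronal exons, 8.31 at Dhx8, 8.22 at Ctnnbl1 and 8.21 at Snrpc.

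Reproducible Chd7 outside the 41 genes was most frequent in the Prp19 and step factors, at 7 of 27 (25.9%, 11.1 to 46.3) with an interval that overlapped those of all other splicing groups. Prpf19, the ubiquitin ligase that names its complex, had the highest mean Chd7 fold (4.94, from 5.56 and 4.31) with a Chd8 fold of 7.28. The others of this group were Puf60 (4.21), Bud31 (4.17), Casc3 (4.11), Isy1 (4.06), Rbm5 (3.92) and Sf1 (3.85), which reads the branch point before U2 snRNP. Further mean Chd7 folds were 4.45 at Pcbp2, 4.45 at Snrnp40, 4.41 at Khdrbs1 (the protein Sam68), 3.93 at Hnrnpul1, 3.91 at Hnrnph3, 3.82 at Luc7l2 and 3.80 at Acin1. Of these, Khdrbs1 had no input peak at an end. Neither the SR protein kinases (0 of 7) nor the further helicases (0 of 13) had any, as with the 3 helicases above. Since only 4.83% of all genes had one, its absence from such small groups says little. Peaks of either Chd7 library lay at ends of most genes in both groups, and of 21.9% of all genes. Inputs 1, 2 and 3 had peaks at ends of 41, 61 and 90 of the 130 genes (21.9%, 28.4% and 45.2% of all genes). Without Chd8 peaks touching its own input by titles, 43 of the 130 kept Chd8 (33.1%, 25.1 to 41.9), with 16.7% of all genes. By track names 72 did (55.4%, 46.4 to 64.1), with 29.1%. Without peaks of any input 30 did (23.1%, 16.1 to 31.3), with 13.1% of all genes.

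**Figure D5:**
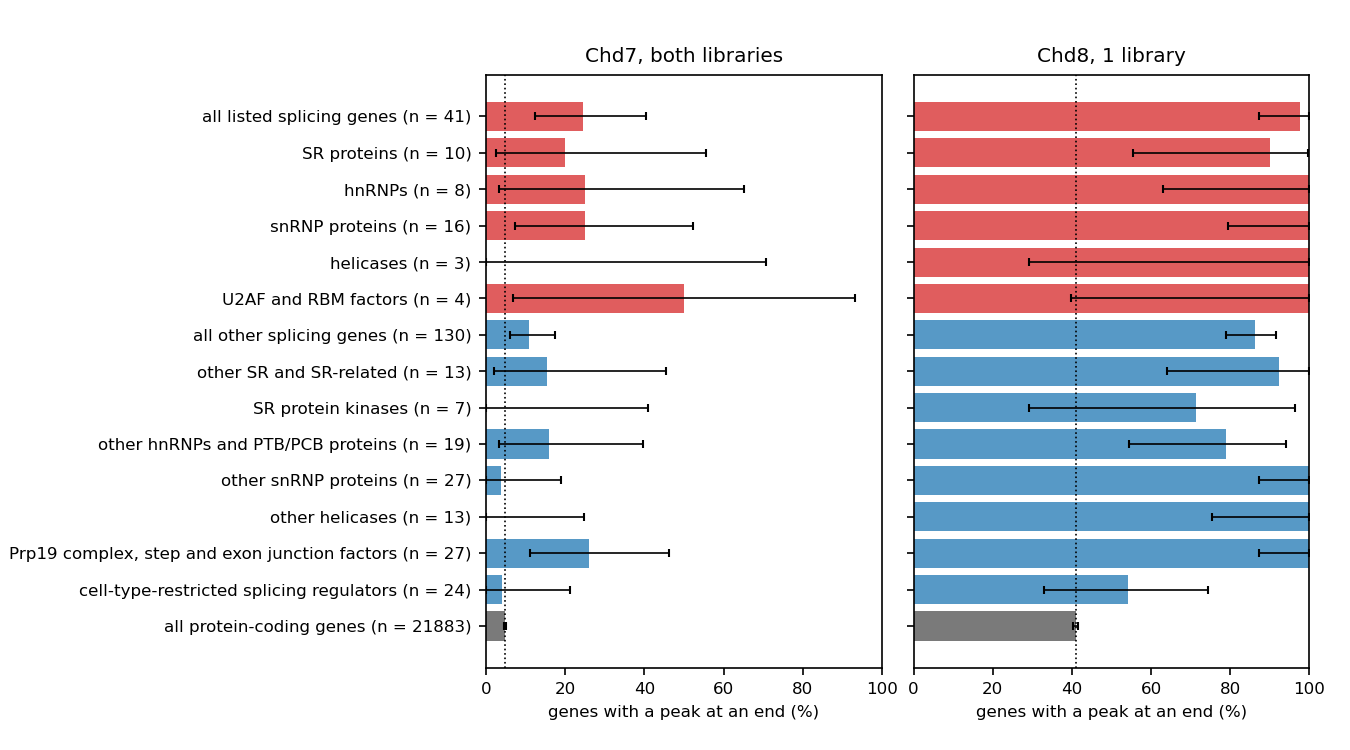
Share of genes with a reproducible Chd7 region (left) or a Chd8 peak (right) at an end (x axis, percent, with 95% exact binomial intervals), for the 41 splicing genes and their groups (red), the 130 further splicing genes and their groups (blue) and all protein-coding genes (grey, also the dotted line). Chd8 bars reach 78.9% to 100% in all splicing groups except the SR protein kinases (71.4%) and the group labelled cell-type-restricted regulators (54.2%). Chd7 intervals overlap among all splicing groups.

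CpG content of the promoters moved with the ChIP shares. Among the 8252 genes whose promoters had an observed to expected CpG ratio of at least 0.6, a limit chosen after the data were seen, 36 of 37 splicing genes had Chd8 (97.3%, 85.8 to 99.9), with 68.4% of all such genes, and 9 of 37 had reproducible Chd7 (24.3%, 11.8 to 41.2), with 9.16%. The gap between splicing genes and all genes was thus narrower within CpG-rich promoters for both proteins, with the share of all such genes below both intervals. The intervals give counting error only, over genes chosen with earlier results known, and are no test. Of the 86 further splicing genes with such promoters, 77 had Chd8 (89.5%, 81.1 to 95.1), above the share of all such genes, whereas 7 had reproducible Chd7 (8.14%, 3.34 to 16.1), with 9.16% of all such genes inside that interval. The part of CpG content in the remaining gaps was not tested.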

How the data were processed

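ChIP-seq peak lists of 8 libraries were grouped by their titles. Each deposited file is a broad peak list. Per the submitters' processing notes the build was mm10 and the tools were Bowtie2, MACS, Picard and SAMtools, with versions, settings and call controls not given here. For every peak the deposited lists hold a score, a fold (the ratio to local background), a −log10 p and a −log10 q, all from the authors' caller. Peak numbers run past the number of listed peaks (to 264855 for input 3), so peaks had been dropped before deposit. Depth is unknown and scales the fold, so fold levels were read within a list only, and the mean of both Chd7 folds only orders regions. The extraction notes name the O4 antibody for isolating the complexes, whereas each library's label names anti-Chd7, anti-Chd8 or rabbit IgG, and the labels were used. In 2 files the track name disagrees with the title on the replicate number, and by track names inputs 2 and 3 would swap. The labels do not say whether replicates came from separate animals.

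Peaks touching a mock peak by at least 1 bp were removed. Where a replicate 1 and a replicate 2 peak shared at least 1 bp, their joint span was a reproducible Chd7 region. Genes were the 21883 protein-coding genes on chromosomes 1 to 19, X and Y of the RefSeq table of GRCm38.p6, and all 41 symbols matched. A gene end was either boundary with 1 kb on both sides, and a locus reached 10 kb beyond the gene body in both directions. Start sites and strands came from the RefSeq promoter table, for 38 of the 41 genes (not Snrpb, Snrpd1 and U2af2) and 17491 in all. Percentiles are of the highest fold at an end among genes with a peak in the same list. Intervals are 95% Clopper-Pearson intervals. No test was run, and overlap counting was checked on simulated peaks. Python 3.11.15, pandas 2.3.3, numpy 2.4.6, scipy 1.17.1 and matplotlib 3.10.9 were used.

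The 41 genes, the 130 further genes, the markers and the settings were chosen with earlier results of these data known. Any of the 41 could be named. Of the further genes, those with reproducible Chd7 and the 5 highest in Chd8 were named. Srsf12, the Srsf10 flank peak and the regulators labelled cell-type-restricted were named after their values were seen. The alternatives are given with their values in the closing section.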

Additional observations from a re-analysis of the deposited data

How the results depend on the processing

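Counts over the 41 splicing genes changed most when stricter or input-free peaks were used. From 10 genes with reproducible Chd7 and 40 with Chd8, with 10 having both at the same end, the counts became 0, 20 and 0 with a −log10 q of at least 5, and 5, 9 and 0 without peaks of the matching input. They became 0, 24 and 0 without peaks of the input named by track numbers, and 0, 6 and 0 without peaks of any input. A fold of at least 5 gave 0 genes with Chd7, 30 with Chd8 and 0 with both, and an overlap of 50% of each peak gave 2 with Chd7 and 2 with both. The q and fold limits left almost no Chd7 region at any gene (0% and 0.0137% of all genes), so those 0 counts are not particular to splicing genes. Leaving out 1 Chd7 library and taking the other alone gave 15 to 21 genes with Chd7 and 15 to 21 with both. Of the 130 further genes, 14 with Chd7 and 112 with Chd8 became 0 and 39 with the q limit (0% and 8.28% of all genes). The fold limit gave 0 and 73 (0.0137% and 17.8%). Without the matching input 8 and 43 remained (1.75% and 16.7%). By track numbers 3 and 72 did (0.759% and 29.1%), and without any input 2 and 30 (0.539% and 13.1%). At the 50% overlap 6 had Chd7 (1.72% of all genes), and with 1 Chd7 library alone 30 to 44 did (10.4% to 17.0%). Equal numbers of peaks left 73 with Chd8 (18.0%). With 1 Chd7 library alone the shares of all genes rose too. Under the other settings here they fell, but not in the same proportion. Without any input, Chd8 lay at 14.6% of the splicing genes, 23.1% of the further genes and 13.1% of all genes. With the q limit these shares were 48.8%, 30% and 8.28%. The cause was not tested.

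Under the other settings, namely mock-touching peaks kept, windows of 5 kb and 250 bp, start sites alone, equal numbers of peaks and CpG-rich promoters alone (chosen after the data were seen), Chd7 lay at 9 to 11 of the splicing genes and Chd8 at 30 to 40. Keeping mock-touching peaks could hardly change the counts, since no mock peak lay at any locus of these genes. Equal numbers of peaks gave 10 and 30 (4.26% and 18.0% of all genes). Loci with 5 kb or 20 kb on both sides gave 11 and 13 genes with Chd7 (7.29% and 10.7% of all genes) and 40 with Chd8 (53.3% and 62.2%). No paired analysis was possible because the counts come from no test. Depth is unknown and Chd8 has 1 library, so a gene without a listed peak is not shown to lack the protein.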
